A study of Homo sapiens with 6 samples.

Results

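Nuclear-encoded genes of the mitochondrial respiratory chain were examined in HGC27 cells, an established gastric cancer line, with and without overexpression of the *FN1* 3′-UTR. The genes were chosen by a pattern of symbols, those used for subunits of complexes I to IV, for cytochrome *c* and for the ATP synthase (complex V), and they were 82 of the 39739 gene rows in the deposited tables. Complex I contributed 38 genes, complex II 4, complex III 9, complex IV 12 and complex V 18, and cytochrome *c* was represented by *CYCS*. The symbol sets the complex here, although RefSeq now names *NDUFA4* as the complex IV subunit *COXFA4* and lists *ATP5S* and *ATP5SL* under the names *DMAC2L* and *DMAC2*, outside the ATP synthase series. With these 3 genes moved or left out, complexes I, IV and V had 37, 13 and 16 genes, the same calls, and medians of -0.01, -0.02 and 0.04. Another 33 rows matched the names but ended in a numbered pseudogene suffix and were left out.

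Expression was read from 3 RNA-seq libraries of cells that carry the stretch stably after lentiviral delivery (HGC27-FN1 3′-UTR) and from 3 of HGC27-control cells without the overexpression. Both groups are the same line, grown in RPMI-1640 with fetal bovine serum, and the methods describe the overexpressing cells as puromycin-selected with no step that picks single clones. The sources do not say whether the replicates were separate cultures, so every p-value and interval below measures the spread between these libraries, which may be technical.

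The respiratory chain sits in the inner mitochondrial membrane. Complexes I and II pass electrons from NADH and succinate to ubiquinone, complex III hands them to cytochrome *c*, and complex IV passes them to oxygen. The proton gradient built by complexes I, III and IV drives the ATP synthase. Most subunits are encoded in the nucleus and imported, and a small set is encoded by the mitochondrial genome itself. Tumor cells commonly keep this chain in use while also running glycolysis at a high rate.

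The libraries held between 16357085 and 37037532 reads assigned to genes. *FN1* itself, over all of its exons together, was at 0.780 ± 0.037 RPKM with the overexpression and at 0.516 ± 0.037 RPKM without it (SD, n = 3). The mesenchymal marker *VIM* was high in every library (285.7 to 324.2 RPKM). The other 5 of the 6 line and epithelial markers (*KRT8*, *KRT18*, *KRT19*, *EPCAM*, *CDH1*) were low in the control and higher in HGC27-FN1 3′-UTR cells. Their log2 fold changes ran from 1.83 for *CDH1* (0.703 against 0.126 RPKM in the control) to 4.11 for *KRT18* (4.87 against 0.179 RPKM). The summed level of the 4 endothelial markers did not exceed 0.0222 RPKM in any library, with *PECAM1* at 0 throughout. The 4 measured leukocyte markers summed to between 0.981 and 1.355 RPKM. The red cell genes *HBA1* and *HBA2* summed to between 36.5 and 40.1 RPKM in HGC27-FN1 3′-UTR cells and between 43.6 and 55.4 RPKM in the control. HGC27-control replicates 1 and 2 stood apart in the heart muscle myosins, with *MYH6* at 17.4 and 9.84 RPKM and *MYH7* at 16.2 and 10.6 RPKM, against 0.984 to 1.29 RPKM for both genes in the other 4 libraries. The muscle genes *ACTA1*, *CKM*, *MB* and *TNNT2* were under 1 RPKM in all 6 libraries. The calls of the members and of the related lists are also given without those control libraries, and the part of these marker differences in the results below was not tested.

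The respiratory chain was expressed throughout, and its transcript levels were nearly the same in both groups. Of the 82 genes, 79 had a mean of at least 1 RPKM and 67 a mean of at least 10 RPKM, and the log2 fold changes of the 79, HGC27-FN1 3′-UTR against HGC27-control, lay between -0.25 and 0.21. The means of 73 of these 79 genes differed by less than 10% between the groups. In RNA from a mass of cells, fewer cells that express a gene and less of its RNA per cell cannot be told apart. RPKM is the number of reads scaled to exon length and to the assigned reads of the library, so levels can be compared between genes only on this per-length scale.

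Levels differed far more between genes than between groups. The median over all members was 33.7 RPKM, with medians of 19.6 RPKM in complex I, 13.1 in complex II, 39.0 in complex III, 49.6 in complex IV and 33.1 in complex V. *NDUFS5*, an accessory subunit of complex I, had the highest mean at 1862 RPKM, which placed it at rank 24 among all gene rows. The highest mean in each of the other complexes was that of *SDHB* (28.5 RPKM), the iron-sulfur subunit of succinate dehydrogenase, *UQCRH* (394.1 RPKM), the hinge subunit of complex III, *COX5B* (177.7 RPKM) in complex IV and *ATP5B* (341.1 RPKM), the catalytic beta subunit of the ATP synthase. Across the 79 genes at 1 RPKM or more, the mean RPKM fell with exon length (Spearman's rho -0.58, a description over genes that share the same 6 libraries). RPKM is itself divided by this length, and the part that the scaling has in this relation was not tested. Exon lengths in the tables ran from 507 to 14160 nucleotides over the members, with a median of 2469.

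**Figure D1:**
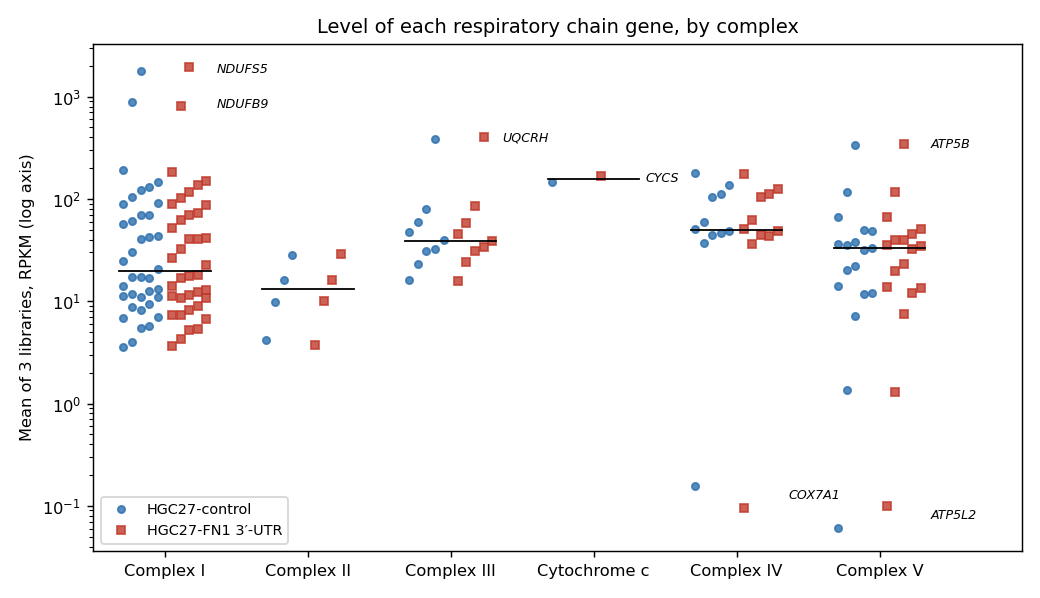
Each point is the mean RPKM of 3 libraries for one gene on a log axis, grouped by complex, with HGC27-control as circles, HGC27-FN1 3′-UTR as squares and the median of the genes in each complex as a line; *COX4I2*, at 0 in every library, is not drawn. The highest level is that of *NDUFS5* at a mean of 1862 RPKM, the paired columns of each complex look alike, and *NDUFS5* and *NDUFB9* stand far above the rest of complex I.

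Only 3 genes were close to absent, and all are isoforms or variants of a subunit expressed elsewhere in the set. *COX4I2*, the lung-type, oxygen-responsive form of cytochrome *c* oxidase subunit 4, had 0 reads in all 6 libraries and was not tested. *COX7A1*, the heart and skeletal muscle form of subunit 7A, had 1, 3 and 3 reads in HGC27-FN1 3′-UTR replicates 1 to 3 and 2, 6 and 7 in the control replicates. *ATP5L2*, a copy of the subunit g gene *ATP5L*, had 2, 2 and 1 reads against 0, 2 and 3. These counts were at or near the limit of 3 reads, so no fold change is given for them. The partner isoforms were abundant. *COX4I1* lay between 123.8 and 141.2 RPKM and *COX7A2* between 47.1 and 55.8 RPKM over the 6 libraries.

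The groups were compared gene by gene with limma on log2(RPKM + 0.1) in a two-sided test of the 23299 genes that reached 0.1 RPKM in at least 3 libraries, and p-values were adjusted over all of them by the Benjamini-Hochberg method. A gene is called here when its adjusted p was under 0.05, whatever the size of the change. On this scale the change of a gene with low RPKM is understated. Of the 81 members tested, 3 were called higher and 2 lower in HGC27-FN1 3′-UTR cells, which is 6.17% of them, while 13.0% of all tested genes were called (5.62% higher and 7.36% lower). At an unadjusted p under 0.05 from limma, 14 members passed (17.3%), against 29.6% of all tested genes. The 3 libraries of one group lay wholly above or below those of the other for 18 members, 9 in each direction. That is 22.2% of the members tested, against 36.0% of all tested genes (14.3% higher and 21.7% lower). No member had an absolute log2 fold change above 1 with an unadjusted limma p under 0.05, a pair of criteria met by 2.47% of all tested genes.

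Most of the members were measured precisely enough to bound the difference between these libraries when scaled to total reads. Intervals under median-ratio scaling, which moved the median log2 fold change over all tested genes from -0.035 to -0.003, are not given. Behind each of the 79 genes at 1 RPKM or more stood between 145 and 87463 reads per library, with a median of 2154. Their 95% intervals had a median half-width of 0.11 on the log2 scale, against 0.25 over all tested genes. For 68 of the 79 genes (86.1%) the whole interval lay within 0.25 of 0, a difference of less than 1.19-fold either way. The share was 37.4% among all genes with a mean of at least 1 RPKM. Among genes at 10 RPKM or more, where the members mostly lie, it was 91.0% of the members and 62.4% of all genes. The 11 members whose intervals reached further were *NDUFA2*, *NDUFA9*, *NDUFA11*, *NDUFAB1*, *NDUFC1*, *NDUFS7*, *SDHC*, *COX8A*, *ATP5G2*, *ATP5G3* and *CYCS*, and for them a difference of this size was not excluded by the interval.

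**Figure D2:**
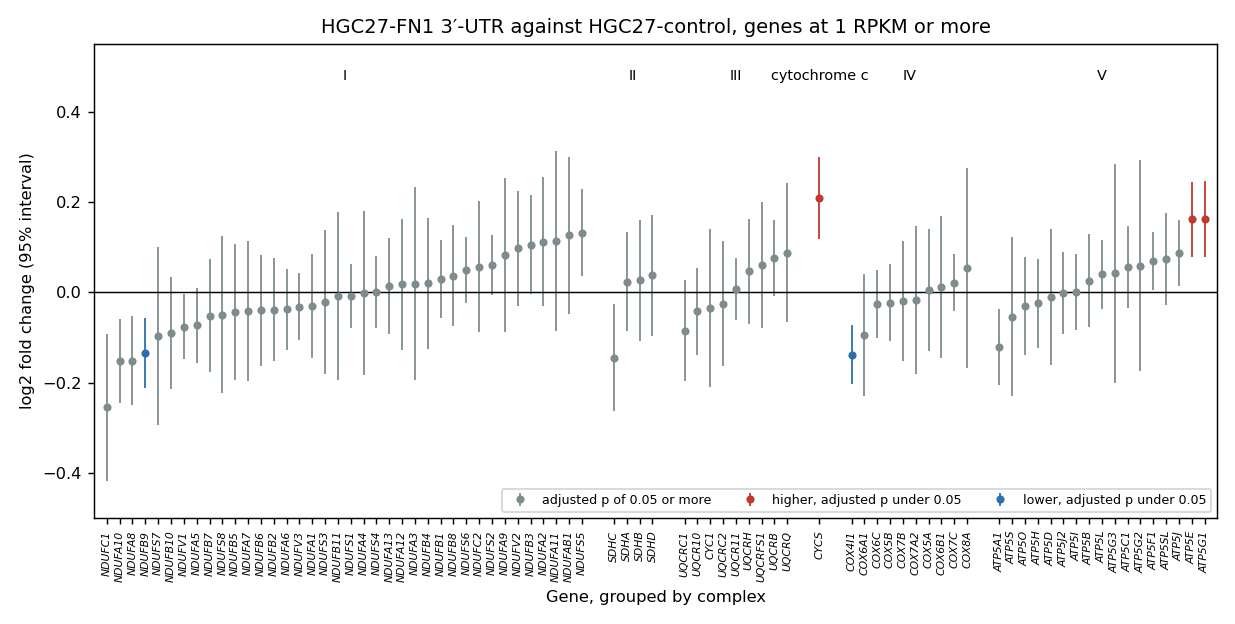
Each point is the log2 fold change of one gene, HGC27-FN1 3′-UTR against HGC27-control, with its 95% interval from limma, for the 79 genes at 1 RPKM or more, ordered within each complex. The points lie between -0.25 and 0.21, most intervals cross 0, and the 5 genes with an adjusted p under 0.05 are coloured.

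Complex I, which oxidizes NADH, had 38 members tested, with 0 called higher and 1 lower by limma. Their median log2 fold change was -0.01, and 17 genes lay above 0 and 21 below, while the median over all tested genes was -0.04. Under median-ratio scaling, which moved the median over all tested genes to 0.00, the complex I median turned to 0.03. At an unadjusted p under 0.05 from limma, *NDUFS5* was above 0 and *NDUFB9*, *NDUFA10*, *NDUFA8*, *NDUFC1* and *NDUFV1* were below. The 7 core subunits in the set, which carry the flavin, the iron-sulfur clusters and the quinone site, summed to 181.0 ± 1.24 RPKM in HGC27-FN1 3′-UTR cells against 179.5 ± 4.36 RPKM in the control (SD, n = 3). *NDUFS1*, the largest core subunit, measured 11.3, 11.1 and 11.1 RPKM in HGC27-FN1 3′-UTR replicates 1 to 3 and 11.3, 11.1 and 11.2 RPKM in the control. Its 2 groups overlapped almost completely, with a log2 fold change of -0.01 (95% interval -0.08 to 0.06). *NDUFV1*, which binds NADH, measured 41.2, 41.8 and 41.2 RPKM against 42.4, 43.7 and 44.9 RPKM. All 3 control values were the higher ones, yet the log2 fold change of -0.08 reached a limma adjusted p of 0.149.

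The called gene of complex I was *NDUFB9*, an accessory subunit of the membrane arm on chromosome 8 from 124539103 to 124568510 (GRCh38, forward strand). It measured 805.0, 815.9 and 794.9 RPKM in HGC27-FN1 3′-UTR replicates 1 to 3 and 865.9, 886.1 and 898.2 RPKM in the control replicates. Every control library was higher. Its log2 fold change was -0.13, with a standard error of 0.032 and a limma adjusted p of 0.0441. Scaling to the median ratio in place of the total reads ended this call (log2 fold change -0.10, adjusted p = 0.108 from limma), as did leaving out any single library, with adjusted p-values from 0.0618 (without HGC27-control replicate 1) to 0.148 (without HGC27-control replicate 2).

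*NDUFS5* and *NDUFB9* together held 39.4% of the summed RPKM of all members, at 95.2 and 43.1 times the median gene of complex I. *NDUFS5* lies on chromosome 1 from 39026318 to 39034636, on the forward strand, with 548 nucleotides of exon. It measured 1998, 1948 and 1897 RPKM in HGC27-FN1 3′-UTR cells against 1806, 1742 and 1784 RPKM in the control. The groups did not overlap, but the log2 fold change of 0.13 (95% interval 0.04 to 0.23) had an adjusted p of 0.0796 from limma. It was called when limma voom was run on the recovered reads (adjusted p = 0.00127). The genes beside it on the same strand, picked after the values were seen, were far lower, with *AKIRIN1* at 19.9 RPKM and *MACF1* at 7.56 RPKM. Near *NDUFB9*, the opposite-strand gene *TATDN1*, whose row overlaps it by position, was also high at 347.8 RPKM and had a log2 fold change of -0.12 (limma, adjusted p = 0.0628). *MTSS1*, whose row overlaps *NDUFB9* on the opposite strand, was at 8.60 RPKM with a log2 fold change of -0.23 (limma, adjusted p = 0.0146). *TMEM65*, a neighbour without overlap, was at 15.1 RPKM with a log2 fold change of -0.26 (limma, adjusted p = 0.00807). *RNF139*, nearer than *TMEM65* and on the strand of *NDUFB9*, was at 48.0 RPKM with a log2 fold change of 0.02 (limma, adjusted p = 0.834). The libraries were strand-specific, but whether the counting used the strand is not given in the sources used here, so overlapping rows may share reads.

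Because of these 2 genes, the summed level of complex I says little about the other 36. The sum over all 38 was 4273 ± 80.1 RPKM in HGC27-FN1 3′-UTR cells against 4192 ± 67.8 RPKM in the control (SD, n = 3), a difference of 1.92%. Without *NDUFS5* and *NDUFB9* the sums were 1519 ± 27.4 and 1532 ± 56.3 RPKM, a difference of -0.791%. The groups overlapped in both sums. Under median-ratio scaling the sums over all 38 no longer overlapped, with a difference of 4.41%, and those without the 2 genes overlapped and differed by 1.65%.

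The genes of complex I that came closest to the threshold, named here after their values were seen, were all accessory subunits, as are 31 of its 38 genes. *NDUFC1* measured 6.99, 7.28 and 7.62 RPKM in HGC27-FN1 3′-UTR cells and 8.17, 8.51 and 9.54 RPKM in the control. Its log2 fold change of -0.25 was the lowest among members at 1 RPKM or more (adjusted p = 0.0574 from limma). *NDUFA10* and *NDUFA8* had log2 fold changes of -0.15 each, with adjusted p-values of 0.0524 and 0.0607 from limma. In all 3 genes every control library was the higher one.

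Complex II, the succinate dehydrogenase, is the one complex here with no subunit encoded by mitochondria, and 0 of its 4 genes were called by limma. Of the 4, only *SDHC* had an unadjusted p under 0.05, with a log2 fold change of -0.14 (limma, adjusted p = 0.106), and limma voom on the recovered reads called it lower. *SDHA*, the flavoprotein, measured 16.3, 16.1 and 16.3 RPKM in HGC27-FN1 3′-UTR cells and 15.0, 16.4 and 16.6 RPKM in the control, which overlap (log2 fold change 0.02, 95% interval -0.09 to 0.13). *SDHB* measured 28.9, 28.2 and 29.1 RPKM against 26.1, 28.4 and 30.3 RPKM, also overlapping (0.03, -0.11 to 0.16). In both genes HGC27-control replicate 1 was the lowest library. *SDHA* shares sequence with pseudogenes, 3 of which had rows of their own with reads equal to between 35.4% and 44.7% of those of *SDHA*, so its level depends on how shared reads were assigned.

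Complex III, the cytochrome *bc*1 complex, had 9 genes tested and 0 called by limma, which also gave 0 at an unadjusted p under 0.05, while limma voom called 0 with 2 at an unadjusted p under 0.05. The 9 genes had log2 fold changes from -0.09 to 0.09. *CYC1*, the heme-bearing cytochrome *c*1, measured 41.0, 37.4 and 37.1 RPKM in HGC27-FN1 3′-UTR cells and 36.4, 38.8 and 43.4 RPKM in the control (log2 fold change -0.03, 95% interval -0.21 to 0.14). *UQCRFS1*, the Rieske iron-sulfur protein, measured 24.4, 23.8 and 24.2 RPKM against 21.3, 23.3 and 24.9 RPKM (0.06, -0.08 to 0.20). *UQCRH* measured 405.7, 419.3 and 376.7 RPKM against 378.4, 400.1 and 384.6 RPKM (0.05, -0.07 to 0.16). The groups overlapped for each of them, and the interval of every one of the 9 genes lay within 0.25 of 0.

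*CYCS*, the carrier between complexes III and IV and also a trigger of apoptosis when released, had the largest increase among the members at 1 RPKM or more. The gene lies on chromosome 7 from 25120091 to 25125361, on the reverse strand. It measured 173.2, 172.5 and 159.9 RPKM in HGC27-FN1 3′-UTR replicates 1 to 3 and 146.3, 146.9 and 144.2 RPKM in the control replicates. All 3 overexpressing libraries were higher, replicate 3 less so. Its log2 fold change was 0.21, with a standard error of 0.038 and a limma adjusted p of 0.0197, a difference of 15.6% between the means. Rows for 28 *CYCS* pseudogenes held reads equal to between 0.652% and 0.958% of those of *CYCS*. The call held without HGC27-FN1 3′-UTR replicate 3 (adjusted p = 0.0175 from limma) and was lost without any other single library, with adjusted p-values from 0.0516 (without HGC27-control replicate 1) to 0.0726 (without HGC27-control replicate 2).

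Complex IV, the cytochrome *c* oxidase, had 11 genes tested, of which 0 were called higher and 1 lower. Their median log2 fold change was -0.02, and 0.01 under median-ratio scaling. The called gene was *COX4I1*, the ubiquitous form of subunit 4, which helps regulate the enzyme, on chromosome 16 from 85798633 to 85807044 (forward strand). It measured 126.1, 123.8 and 127.2 RPKM in HGC27-FN1 3′-UTR cells and 137.1, 136.9 and 141.2 RPKM in the control. The groups were well apart relative to their spread. Its log2 fold change was -0.14, with a standard error of 0.027 and a limma adjusted p of 0.0237. The call was lost under median-ratio scaling (-0.10, adjusted p = 0.056 from limma) and without any single library other than HGC27-control replicate 1 (adjusted p-values from 0.057 without HGC27-FN1 3′-UTR replicate 3 to 0.0825 without replicate 2). The other 9 oxidase genes above 1 RPKM had log2 fold changes from -0.09 to 0.05, with groups that overlapped. Among them *COX5B* measured 178.4, 174.4 and 175.8 RPKM against 171.2, 183.9 and 182.2 RPKM, a log2 fold change of -0.02 (95% interval -0.11 to 0.06). *COX7A2* had a log2 fold change of -0.02 (95% interval -0.18 to 0.15).

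Complex V, which makes ATP from the proton gradient, had 18 genes tested, with 2 called higher and 0 lower. Its median log2 fold change of 0.04 was the highest of the 5 complexes, but it was -0.02 without HGC27-control replicate 1. *ATP5E*, the epsilon subunit of the central stalk (chromosome 20 from 59025467 to 59032382, reverse strand), measured 41.2, 39.7 and 39.4 RPKM in HGC27-FN1 3′-UTR cells against 34.8, 35.8 and 37.0 RPKM in the control. *ATP5G1*, a gene for the proton-carrying subunit c (chromosome 17 from 48892765 to 48895871, forward strand), measured 13.6, 13.2 and 13.2 RPKM against 11.5, 12.1 and 12.1 RPKM. Neither gene had overlapping groups. The log2 fold change was 0.16 for *ATP5E* (standard error 0.034, adjusted p = 0.0303 from limma) and 0.16 for *ATP5G1* (standard error 0.035, adjusted p = 0.0324). The call of *ATP5E* was kept without HGC27-control replicate 3 (adjusted p = 0.0407 from limma) and lost without each of the other libraries (0.066 without HGC27-FN1 3′-UTR replicate 3 to 0.104 without HGC27-control replicate 2). That of *ATP5G1* was lost without each library in turn (adjusted p from 0.0649 without HGC27-control replicate 3 to 0.104 without HGC27-FN1 3′-UTR replicate 1, limma).

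The genes that share a subunit or a module with them were not called. Subunit c is made from 3 genes with the same mature product, and the remaining pair, *ATP5G2* and *ATP5G3*, had log2 fold changes of 0.06 (95% interval -0.17 to 0.29) and 0.04 (-0.20 to 0.28). *ATP5G2* measured 23.4, 22.9 and 22.5 RPKM in HGC27-FN1 3′-UTR cells and 18.7, 23.4 and 24.3 RPKM in the control. *ATP5G3* measured 12.4, 12.5 and 11.4 RPKM against 10.1, 12.2 and 13.1 RPKM. In both, HGC27-control replicate 1 was the lowest library and HGC27-control replicate 3 the highest. The 3 subunit c genes together summed to 48.4 ± 1.16 RPKM in HGC27-FN1 3′-UTR cells against 45.9 ± 4.90 RPKM in the control (SD, n = 3).

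In the catalytic head, *ATP5A1*, the alpha subunit, measured 46.7, 45.5 and 45.3 RPKM in HGC27-FN1 3′-UTR cells against 47.9, 50.05 and 51.6 RPKM in the control. All control values were higher, and the log2 fold change of -0.12 reached a limma adjusted p of 0.072. It was called lower in 4 alternatives, at a mean of at least 10 RPKM (limma, adjusted p = 0.0479), when scaled without mitochondrial reads (0.0461), with limma voom (0.00577) and without HGC27-control replicate 1 (0.0495). *ATP5B*, its partner in the head, measured 353.3, 336.1 and 342.7 RPKM against 324.2, 335.1 and 355.4 RPKM and overlapped (0.03, 95% interval -0.08 to 0.13). The alpha, beta, gamma, delta and epsilon genes together summed to 500.2 ± 11.3 RPKM in HGC27-FN1 3′-UTR cells against 492.4 ± 21.5 RPKM in the control. The 4 genes of the peripheral stalk, which holds the head in place, summed to 124.2 ± 1.74 and 121.2 ± 2.499 RPKM (SD, n = 3). None of those 4 was called, but under median-ratio scaling *ATP5J* was called higher, which made 4 members higher and 0 lower.

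**Figure D3:**
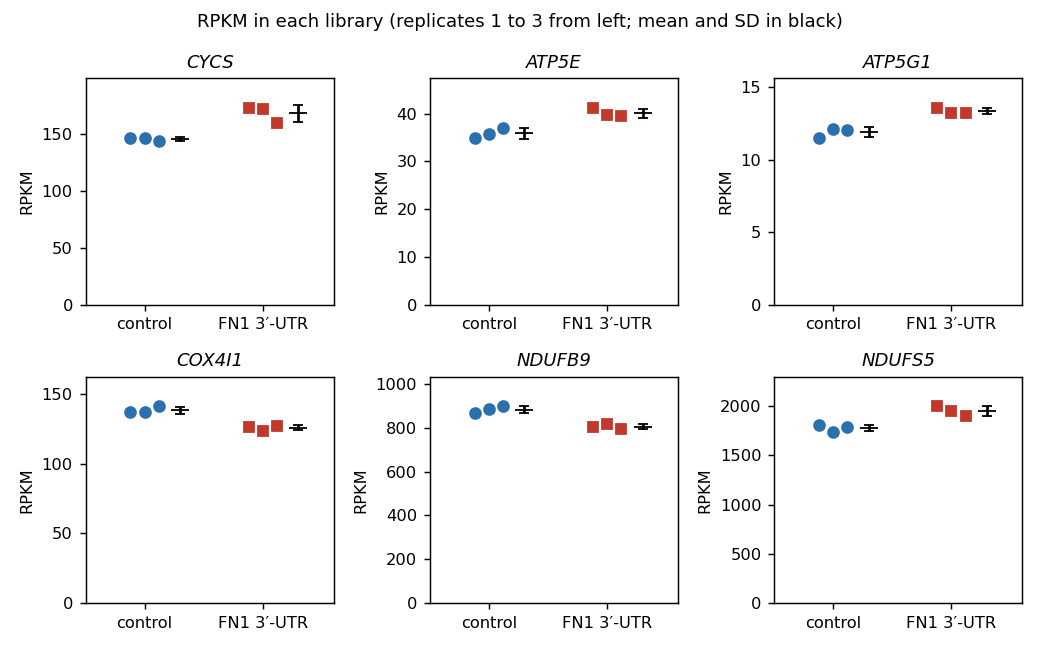
RPKM of the 5 called genes and of *NDUFS5* in each library, with HGC27-control as circles and HGC27-FN1 3′-UTR as squares, replicates 1 to 3 from left to right, the mean and SD in black, and each axis starting at 0. In every panel the 3 values of one group lie apart from those of the other, by a margin that is small beside the level itself.

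None of the 5 calls was kept in every fit. With HGC27-control replicates 1 and 2 both left out, the libraries with the myosin reads, 0 members were called in either direction by limma and 11 had an unadjusted p under 0.05, where the fit called 0.405% of all genes it tested, and the adjusted p-values of the 5 genes ran from 0.161 for *COX4I1* to 0.285 for *ATP5E*. In that fit 1 control library remained and was assumed to vary like the other group. The log2 fold changes of the 5 genes kept their direction there (0.22 for *CYCS*, 0.12 for *ATP5E*, 0.14 for *ATP5G1*, -0.17 for *COX4I1* and -0.16 for *NDUFB9*). The median over all 81 members moved from 0.00 to -0.05, and that over all tested genes from -0.04 to -0.05. When the fit was limited to genes with a mean of at least 10 RPKM, 8 of 67 members were called (11.9%), against 26.8% of those genes. Limma voom on the recovered reads called 4 members higher and 7 lower, among them all 5, where it called 21.9% of all tested genes.

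Summed over the whole set, the levels overlapped between the groups when scaled to total reads, and did not under median-ratio scaling. The 82 genes totalled 7060, 6935 and 6807 RPKM in HGC27-FN1 3′-UTR replicates 1 to 3 and 6679, 6806 and 6965 RPKM in the control replicates. The means were 6934 ± 126.5 and 6817 ± 143.1 RPKM (SD, n = 3), a difference of 1.73%. Under median-ratio scaling the sums were 7128, 7045 and 6882 against 6726, 6657 and 6820, a difference of 4.21%, with every HGC27-FN1 3′-UTR library the higher one. *NDUFS5* and *NDUFB9* held 39.4% of the summed RPKM. Without them the means scaled to total reads were 4181 ± 71.3 and 4156 ± 138.8 RPKM (SD, n = 3). That is a difference of 0.597%, with overlapping groups. Sums per complex differed by 0.968% in complex II, 2.09% in complex III, -1.94% in complex IV and 1.64% in complex V, with overlapping groups in each. Under median-ratio scaling these differences were 3.48%, 4.6%, 0.477% and 4.14%, and the groups no longer overlapped in complex III. With 3 libraries a group, the smallest two-sided p of an exact permutation test is 0.1, so no test of these sums is given.

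Within the control, the libraries differed in a shared way. Of the 79 genes at 1 RPKM or more, 58 had their lowest control value in replicate 1 and 54 their highest in replicate 3. In HGC27-FN1 3′-UTR cells the pattern was weaker, with 39 genes highest in replicate 1. The coefficient of variation between replicates had a median of 3.11% in HGC27-FN1 3′-UTR cells and 4.37% in the control. The members took 1.33%, 1.31% and 1.29% of the assigned reads in HGC27-FN1 3′-UTR replicates 1 to 3 and 1.28%, 1.32% and 1.34% in the control. Reads on genes of the mitochondrial genome ran in the opposite order within each group, at 5.37%, 6.41% and 6.72% and at 6.96%, 6.58% and 6.20%. Taken as a share of the reads outside the mitochondrial genome, the members held 1.40%, 1.40% and 1.38% against 1.37%, 1.41% and 1.43%, so the control order remained. Its source was not tested.

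**Figure D4:**
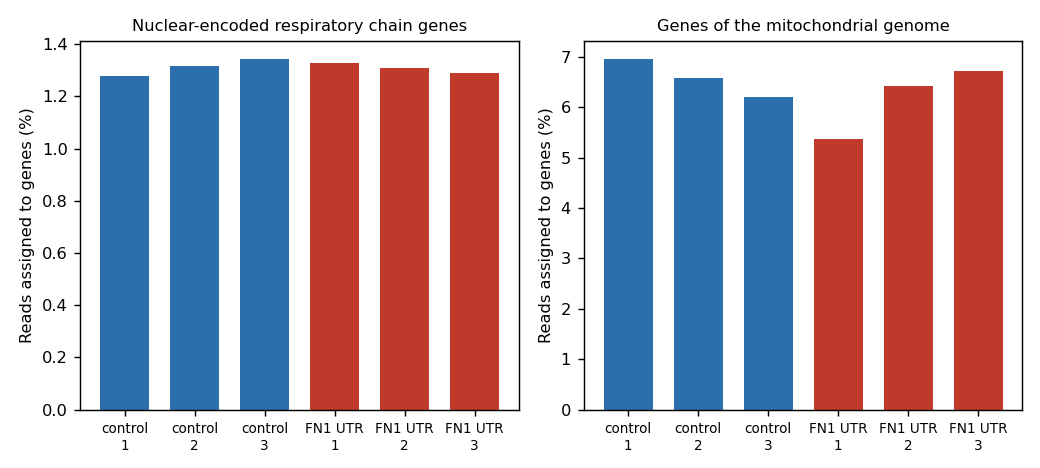
Bars give the percentage of assigned reads on the 82 nuclear-encoded genes (left) and on genes of the mitochondrial genome (right) in each of the 6 libraries, with the control on the left of each panel and HGC27-FN1 3′-UTR (labelled FN1 UTR) on the right. The nuclear share lies between 1.28% and 1.34%, the mitochondrial share between 5.37% and 6.96%, and the order of the libraries within a group is opposite in the 2 panels.

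The partner subunits made inside mitochondria were measured in the same libraries. Of 13 mitochondrially encoded subunit genes, 0 were called by limma, with log2 fold changes from -0.28 to 0.15 and a median of -0.11. At an unadjusted p under 0.05 from limma, 3 were lower (*MT-CO1*, *MT-CO2* and *MT-CYB*), where 29.6% of all tested genes passed in either direction. Limma voom on the recovered reads called 4 lower, these and *MT-ND2*, where it called 21.9% of all tested genes. *MT-CO1*, the catalytic core of complex IV, measured 2756, 3102 and 3418 RPKM in HGC27-FN1 3′-UTR cells against 3799, 3651 and 3608 RPKM in the control. The groups did not overlap, and its log2 fold change of -0.26 reached a limma adjusted p of 0.0944. The 4 genes were named after their values were seen.

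Few genes on the list of assembly factors passed the test. The list is broad and holds *ATPIF1*, *USMG5* and *C14orf2* under complex V. Of its 55 genes tested, 2 were called higher and 1 lower, all 3 of them listed under complex IV, and the median log2 fold change of the 55 was 0.01. *SCO1*, which delivers copper to the oxidase, measured 10.1, 10.0 and 10.2 RPKM in HGC27-FN1 3′-UTR cells against 8.66, 8.12 and 8.77 RPKM in the control (log2 fold change 0.24, adjusted p = 0.016 from limma). *COX19*, another protein of the copper route, measured 3.55, 3.86 and 3.47 RPKM against 4.61, 4.57 and 4.34 RPKM (-0.31, adjusted p = 0.0222).

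Isoforms outside the naming pattern held the largest change seen around the chain. *NDUFA4L2*, a paralog of *NDUFA4* known as a target of hypoxia signaling, measured 1.33, 1.53 and 1.49 RPKM in HGC27-FN1 3′-UTR cells against 3.18, 2.94 and 2.52 RPKM in the control. The lowest control value was well above the highest overexpressing one. Its log2 fold change was -0.94, with a standard error of 0.10 and a limma adjusted p of 0.00458, on 288 and 715 reads over the 3 libraries of each group. *NDUFA4* itself had a log2 fold change of 0.00 (95% interval -0.18 to 0.18). *HIGD1A*, another hypoxia-inducible gene of the inner membrane, measured 26.1, 25.4 and 24.7 RPKM against 21.1, 23.0 and 23.1 RPKM (0.18, adjusted p = 0.048). Of the 5 genes of this list that were tested, these 2 were called, and the tissue-restricted *COX6A2*, *COX6B2* and *COX8C* did not reach the minimum level.

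Among 13 tested regulators of respiratory gene transcription, 1 was called higher and 2 lower, with a median log2 fold change of -0.04. *MYC*, which drives growth and mitochondrial biogenesis genes, measured 81.1, 78.4 and 81.9 RPKM in HGC27-FN1 3′-UTR cells against 97.5, 102.1 and 108.9 RPKM in the control (-0.35, adjusted p = 0.00734 from limma). *TFB2M*, a factor that starts transcription on mitochondrial DNA, measured 18.8, 17.5 and 18.2 RPKM against 15.6, 14.1 and 16.1 RPKM (0.25, adjusted p = 0.042). The third, *NRF1*, which binds many respiratory gene promoters and is named here after its values were seen, measured 3.44, 3.38 and 3.43 RPKM against 3.90, 3.97 and 3.97 RPKM (-0.20, adjusted p = 0.0292). *GABPA*, *YY1*, *TFAM* and *ESRRA* had adjusted p-values between 0.138 and 0.440 from limma.

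The promoters of the members were searched for the short sequences bound by NRF1, by ETS factors such as GABPA and by YY1. RefSeq start sites on GRCh38.p14 were found for 65 of the 82 genes, and each window ran from 250 bases before the start to 50 after it, on both strands. The NRF1 core CGCATGCG was in 10 of the 65 windows (15.4%), against 2.02% of 35116 promoters of all genes and 2.49% of those of protein-coding genes. The ETS core CCGGAAG was in 19 (29.2%, against 10.3% of all and 12.8% of coding promoters), and the YY1 core AANATGGCG was in 16 (24.6%, against 3.19% and 4.24%). The ETS and YY1 matches overlapped in 0 members. Only in *ATP5J* (-57) and *NDUFS8* (-180) did the YY1 match begin before the start site. In the other members it began in transcribed sequence, from base 9 (*NDUFS6*) to base 42 (*NDUFV2*). The YY1 core holds the letters ATG, and the part that start codons have in its share was not tested. Of the 5 called genes, *CYCS*, *ATP5E* and *ATP5G1* held none of these cores in their windows, *COX4I1* held an ETS core and *NDUFB9* had no entry. The lines below show 24 bases around the match, 5′ to 3′ on the gene's strand, with the core in capitals, for NRF1 cores within 50 bases of the start site and for the called gene *COX4I1*, whose core is read on the opposite strand.
ATP5C1, chr10:7788148-7788171, forward strand: agcttcggCGCATGCGcgctgagg
ATP5G2, chr12:53676109-53676132, reverse strand: ccgggtcaCGCATGCGctgagcct
NDUFA8, chr9:122159767-122159790, reverse strand: gccggatgCGCATGCGcaggcgcc
NDUFS6, chr5:1801354-1801377, forward strand: aagccgtgCGCATGCGttagcgct
COX4I1, chr16:85799689-85799712, forward strand: cttgctctCTTCCGGtcgcgggac

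The 10 genes with an NRF1 core had a median log2 fold change of 0.03, from -0.15 for *NDUFA8* to 0.09, and the other 55 a median of 0.00. None of the 10 was called. The 19 genes with an ETS core had a median of 0.01 and the 16 with a YY1 core a median of -0.01. A match to such a short core is a description of the letters and not a bound site.

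Neighbouring mitochondrial pathways showed calls in both directions. Of 19 enzymes of the citric acid cycle and the steps that feed it, 2 were called higher and 2 lower, with a median log2 fold change of -0.02. *PDHB*, a subunit of pyruvate dehydrogenase, measured 38.7, 39.4 and 35.9 RPKM in HGC27-FN1 3′-UTR cells against 30.9, 30.6 and 30.6 RPKM in the control (0.31, adjusted p = 0.00796 from limma). *OGDH*, of the oxoglutarate dehydrogenase complex, had a log2 fold change of 0.25 (adjusted p = 0.0266). Of 24 genes of mitochondrial protein import, through which the nuclear-encoded subunits enter, 5 were called higher and 2 lower, with a median of 0.06. *TOMM34*, a cytosolic co-chaperone of import, measured 25.8, 26.1 and 27.8 RPKM against 31.3, 31.8 and 33.8 RPKM (-0.28, adjusted p = 0.0133). *TIMM8B*, a small chaperone between the membranes, measured 49.3, 43.7 and 45.7 RPKM against 37.0, 37.4 and 40.6 RPKM (0.27, adjusted p = 0.0305). The share called in each list is read against the 13.0% of all tested genes. It was above that for the citric acid cycle, import, regulator and isoform lists. For the assembly factors and the mitochondrially encoded subunits it was below. The lists are short, and no test of a list was run. The called import genes were all above 10 RPKM. In the fit limited to genes with a mean of at least 10 RPKM, 26.8% of the genes were called, and the called import genes all stayed called. The import list also holds genes below 10 RPKM (*PAM16*, *TIMM22*, *TIMM50*, *TOMM70*, *DNAJC19*, *TIMM17B* and *TIMM8A*), and none of these was called. The share of all 24 import genes is therefore not like for like with the 26.8%. Leaving these genes out would raise it. Without HGC27-control replicates 1 and 2, 0 of the 19 called genes of these lists were called by limma, where 0.405% of all genes were, and 16 had an unadjusted p under 0.05. All 19 kept their direction in that fit, with *NDUFA4L2* at -0.76 (limma, adjusted p = 0.121) and *MYC* at -0.44 (0.0574). With a single library left out, between 5 and 14 of the 19 were called.

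**Figure D5:**
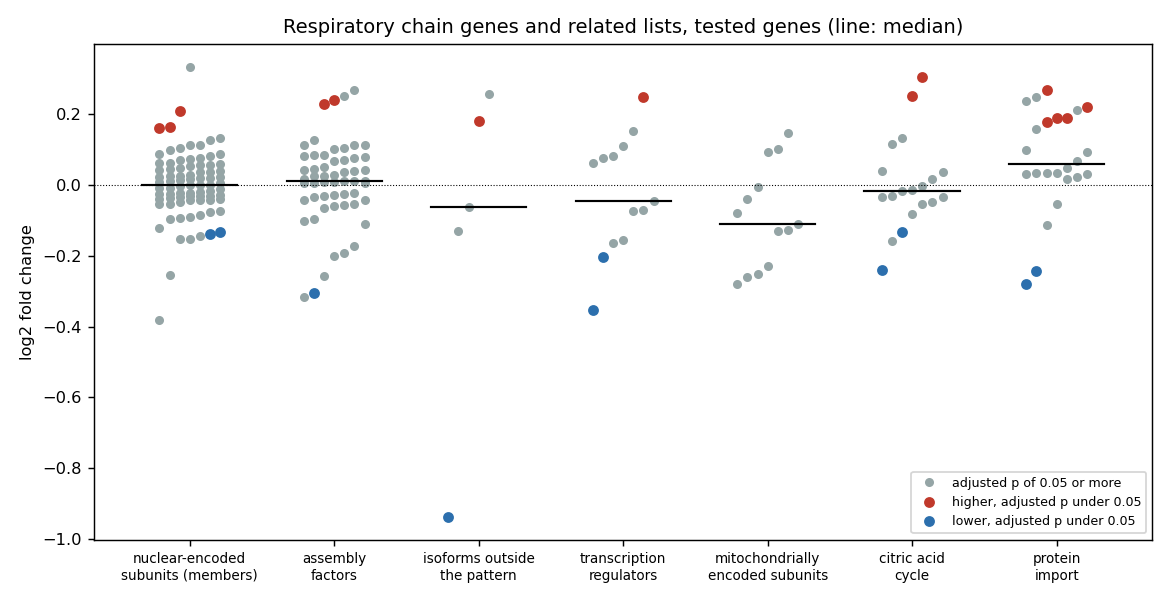
Each point is the log2 fold change, HGC27-FN1 3′-UTR against HGC27-control, of one tested gene of the members or of a related list, with called genes coloured and the median of each list as a line. The members and the assembly factors are centred near 0, and the lowest point is *NDUFA4L2* at -0.94.

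Other rows carry the names of the members as well. There were 128 pseudogene rows, 17 of them with 0 reads, and together they held reads equal to between 0.631% and 0.757% of those on the members. Of these rows 47 were tested and 0 were called by limma, with 5 at an unadjusted p under 0.05, and limma voom called 1 in each direction. The read-through rows *NDUFC2-KCTD14* (35.4 RPKM) and *ATP5J2-PTCD1* (54.1 RPKM) overlap *NDUFC2* and *ATP5J2*, whose levels are therefore uncertain to that extent. Neither the read-through rows nor these 2 genes were called. Outside the pseudogene rows, *UQCRHL*, named after *UQCRH*, held 6805 reads in HGC27-FN1 3′-UTR cells and 9098 in the control. *UQCRH* itself held 39249 and 49313 reads, and whether the 2 rows share reads was not tested.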

How the data were processed

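Expression of 6 libraries was analysed. The mRNA libraries were strand-specific, and the values deposited by the authors are RPKM per gene, with 1 table for each library. The submitters' processing notes name Trimmomatic 0.36, STAR 2.5.3a, featureCounts of Subread 1.5.1 and GRCh38. The annotation release, the strand setting and the handling of duplicate reads are not given in the sources used here. Whole reads were recovered from RPKM and exon length, with 100% of values above 0 within 0.05 of a whole read. They gave the depth, and limits in reads cover counting error only.

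Groups came from the sample labels. limma 3.58.1 in R 4.3.3 was fitted to log2(RPKM + 0.1) with group as the only term and a trend in the prior variance, over genes with at least 0.1 RPKM in 3 libraries. Alternatives were pseudocounts of 1 and 0.01, no filter, a mean of at least 10 RPKM, median-ratio scaling, scaling without mitochondrial reads, limma voom on recovered reads, the replicate number as a block, and each library left out. The fit was also run on simulated reads. These held no shifts shared by the genes of a library, so that run does not cover those seen in the control. The simulated reads also had the same small spread beyond counting error for every gene, so genes that vary more are not covered either. Other steps used Python 3.11.15 with numpy 2.4.6, pandas 2.3.3 and matplotlib 3.10.9.

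The members, lists and naming rule were chosen with earlier results of these data known. The rule named up to 3 called members per direction in each complex, the member with the highest RPKM, fixed core subunits and isoforms, and up to 2 called genes per list. The interval limit of 0.25, the modules of complexes I and V and the sums without *NDUFS5* and *NDUFB9* were chosen after seeing the data, as were leaving out both control libraries with raised myosins, the fits of the list genes and the overlap of sums under median-ratio scaling. A called gene of a related list is not reported here.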

Additional observations from a re-analysis of the deposited data

How the results depend on the processing

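The log2 fold changes of *CYCS*, *ATP5E*, *ATP5G1*, *COX4I1* and *NDUFB9* kept their direction in all alternatives, and their calls did not. Calls of lower members moved from 2 to 1 with no filter (complex I 0), to 5 at a mean of at least 10 RPKM (complex I 3, complex V 1), to 0 under median-ratio scaling (complexes I and IV 0, with *ATP5J* added to the higher calls), to 4 when scaled without mitochondrial reads (complex I 2, complex V 1) and to 7 with limma voom (complex I 4, complexes II and V 1), where complex I also had 1 higher. Of all calls, 43.3% were higher, and 56.0% under median-ratio scaling. That scaling raised the summed RPKM difference to 4.21% over all members and 4.41% in complex I, turned the medians of complexes I and IV to 0.0262 and 0.0148, and turned the log2 fold changes of *NDUFS1* and *COX7A2* to 0.0264 and 0.0169. Without *NDUFS5* and *NDUFB9* the complex I sum differed by -0.791% when scaled to total reads and by 1.65% under median-ratio scaling. Same-numbered replicates did not deviate together (correlations 0.0024, 0.021 and 0.010). With the replicate block 0 members were called in any complex by limma, where 4.99% of all genes were called and 11 members had an unadjusted p under 0.05, with adjusted p-values of 0.0504 for *CYCS*, 0.0676 for *COX4I1*, 0.0962 for *ATP5E*, 0.0989 for *ATP5G1* and 0.118 for *NDUFB9*. Leaving out 1 library, which called 4.28% to 8.26% of all genes, gave 0 to 2 higher and 0 to 2 lower calls in all, 0 to 1 higher in complexes I and V and cytochrome *c*, 0 lower in complex I and 0 to 1 lower in complexes IV and V, and medians of -0.03 to 0.0341 over all members and -0.0153 to 0.0615 in complex V. The sign of *COX7A2* turned without HGC27-FN1 3′-UTR replicate 1 or 3 or HGC27-control replicate 2 (range -0.091 to 0.0316), that of *CYC1* without HGC27-control replicate 3 (-0.0921 to 0.0345), and those of *SDHA* (-0.0226 to 0.0521), *SDHB* (-0.0299 to 0.0774), *ATP5B* (-0.0047 to 0.0615), *ATP5G2* (-0.0566 to 0.1309) and *ATP5G3* (-0.0683 to 0.1212) without HGC27-control replicate 1. Without HGC27-control replicates 1 and 2 together, an alternative chosen after seeing the data, 0 members were called (0.405% of all genes), medians were -0.0526 over all members, -0.0617 in complex I, -0.055 in complex II, -0.0439 in complex III and -0.0365 in complex V, and the signs turned for *SDHA* (-0.0338), *SDHB* (-0.0761), *UQCRFS1* (-0.0439), *ATP5B* (-0.0471), *COX7A2* (0.0291), *ATP5G2* (-0.0839) and *ATP5G3* (-0.1171). Beyond what these alternatives change by construction, the cause of these shifts was not tested. Depth limited *COX7A1* and *ATP5L2*.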
